A study of Mus musculus with 4 samples.

Results

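Distal open-chromatin intervals into which 7 or more peak calls had been merged were described in mouse brain parenchymal macrophages profiled by ATAC-seq. The intervals came from the authors' merged peak list and were kept if they lay on chromosomes 1 to 19, carried a call number of 7 or more at the end of their name, and had a centre more than 1000 bp from both ends of every RefSeq protein-coding gene and at most 100000 bp from a gene body. Of 74695 merged intervals, 1105 met the rule. The members were thus selected on the call number, which was measured in these libraries, and every value tied to it is given as a description with no test.

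Sorted macrophages were profiled as 4 libraries, 2 labelled MDM, read from the title as monocyte-derived macrophages, and 2 labelled YSM, which the labels do not spell out. Both groups carried the genotype Ms4a3-Ai9, in which Ms4a3 names a gene of the granulocyte and monocyte lineage and Ai9 a red fluorescent reporter that needs Cre recombinase. Both also carried the treatment label DR-3x, which is not explained, and neither ages nor separate animals were given. Peaks of all 4 libraries had been merged into 1 list, so no interval had a value per library and the depth behind an interval was not analysed here.

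ATAC-seq uses the Tn5 transposase, which inserts adapters where DNA is not wrapped tightly around nucleosomes. Open stretches away from gene ends are often enhancers, to which lineage factors such as PU.1 bind in macrophages, and an enhancer can be several nucleosomes long. Where a peak caller reports windows of fixed width, a long open stretch can receive several neighbouring calls.

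No genome sequence was used, but 116 of the 1071 members on chromosomes covered by a RefSeq table of transcription starts (GRCm38.p6, the assembly of mm10) shared bases with the window from 250 bases before to 50 bases after a start. The stretches printed here are the parts of such members that lie before the start, written 5′ to 3′ on the strand of the transcript. They were chosen after their values were seen: the MDM-listed member that held a start, members of the highest call numbers, and members at genes known from macrophages. Capitals mark matches, on either strand, to PU.1 (GAGGAAGT), C/EBP (TTGCNNAA), RUNX (TGTGGT) or the core of the CTCF motif.
Kcnip1 member, start of Gm36395, chr11:33931975-33932127 (plus strand): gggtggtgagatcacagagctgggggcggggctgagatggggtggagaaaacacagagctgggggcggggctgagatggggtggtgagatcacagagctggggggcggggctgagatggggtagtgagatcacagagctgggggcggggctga
Ntng2 member, start of 6530402F18Rik, chr2:29252994-29253243 (minus strand): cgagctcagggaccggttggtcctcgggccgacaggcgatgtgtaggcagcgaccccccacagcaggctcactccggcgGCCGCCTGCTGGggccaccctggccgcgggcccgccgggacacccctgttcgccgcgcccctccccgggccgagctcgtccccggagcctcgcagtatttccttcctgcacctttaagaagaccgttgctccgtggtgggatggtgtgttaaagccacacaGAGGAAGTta
Rab13 member, start of Rab13, chr3:90220534-90220783 (plus strand): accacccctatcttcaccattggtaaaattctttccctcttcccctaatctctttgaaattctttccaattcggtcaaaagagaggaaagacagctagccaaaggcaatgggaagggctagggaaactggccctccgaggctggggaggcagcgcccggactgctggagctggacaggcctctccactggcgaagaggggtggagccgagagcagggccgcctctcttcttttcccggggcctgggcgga
Cd9 member, start of Gm28809, chr6:125481824-125482073 (plus strand): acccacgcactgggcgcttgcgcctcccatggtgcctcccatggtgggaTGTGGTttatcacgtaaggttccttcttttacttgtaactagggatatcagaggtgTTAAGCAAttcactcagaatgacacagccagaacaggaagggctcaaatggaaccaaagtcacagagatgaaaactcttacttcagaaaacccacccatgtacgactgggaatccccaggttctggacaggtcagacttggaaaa
Dok3 member, start of Dok3, chr13:55528539-55528788 (minus strand): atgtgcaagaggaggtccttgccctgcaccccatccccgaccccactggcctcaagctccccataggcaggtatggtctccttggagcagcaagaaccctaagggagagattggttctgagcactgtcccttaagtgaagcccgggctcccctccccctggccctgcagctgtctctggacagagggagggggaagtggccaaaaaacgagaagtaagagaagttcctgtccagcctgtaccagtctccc
Ctnnd1 member, start of Ctnnd1, chr2:84650741-84650964 (minus strand): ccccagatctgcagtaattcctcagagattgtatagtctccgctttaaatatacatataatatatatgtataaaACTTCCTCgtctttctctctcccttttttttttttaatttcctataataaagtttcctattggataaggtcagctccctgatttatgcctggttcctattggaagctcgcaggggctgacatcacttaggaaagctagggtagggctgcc
Plaur member, start of Plaur, chr7:24462420-24462482 (plus strand): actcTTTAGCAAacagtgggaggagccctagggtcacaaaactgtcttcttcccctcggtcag
The Kcnip1 stretch was repetitive. Shifted by 39 bases against itself, it matched at 69.3% of positions over its 153 bases, the highest value among the 92 such stretches of 100 bases or more, of which the next had 48.5% and the median 36.2%. The 12-call interval at Rab13, a small GTPase gene, held no match to these motifs in its 250 bases. The 11-call Ntng2 stretch held both a PU.1 and a CTCF match, that at Ctnnd1, the gene of p120-catenin, a PU.1 match, and that at the lncRNA start inside Cd9, a tetraspanin gene, a C/EBP and a RUNX match. That at Plaur, the urokinase receptor gene, held a C/EBP match. The stretch at Dok3, the gene of an adaptor that dampens immune receptor signals, held none.

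One member, a 7-call interval of 393 bp inside Cdc20b (chr13:113035904-113036296), held the whole hairpin of microRNA 449c, whose family is known from ciliated epithelium. Both mature strands are shown, with bases 2 to 8, the seed that pairs with targets, in capitals.
mmu-miR-449c-5p, chr13:113036008-113036028 (plus strand): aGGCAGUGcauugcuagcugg
mmu-miR-449c-3p, chr13:113036049-113036070 (plus strand): cAGUUGCUagcugcacuacccu
It was the 1 member that overlapped an entry of the RefSeq microRNA table.

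Of all 1856 merged intervals with 7 or more calls, 59.5% were the 1105 members. Another 641 lay at a gene edge, 66 lay beyond 100000 bp from a gene, and 44 lay outside chromosomes 1 to 19. Members were 2.05% of the 53930 distal intervals, whereas intervals of 7 or more calls were 4.11% of the 15588 at gene edges. At the limits of the rule, an 8-call interval at Pcyox1 lay 987 bp from a gene end and was left out, and a 7-call interval at Zbtb8os lay 1000.5 bp from one and was kept. The farthest member from its gene was at Minar1, 97303.5 bp away. Among distal intervals, 1292 had 6 calls, with a median width of 441 bp, and 663 had 7, with a median of 470 bp.

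Most members stood just above the limit. Of the 1105, 663 (60%) had 7 calls, 363 (32.9%) had 8, 46 had 9, 22 had 10, 6 had 11 and 5 had 12. With 4 libraries, 7 or 8 calls mean that at least 1 library gave 2 or more calls in the interval, and 9 to 12 calls that at least 1 gave 3 or more. Which library gave them is not recorded in the intervals.

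Members were wide for the list. Their width ran from 206 to 1136 bp with a median of 482 bp, against a median of 258 bp for the 27872 distal intervals of 4 to 6 calls and 201 bp, the width of a single call, for the 11939 of 1 call. The median was 470 bp at 7 calls, 489 bp at 8, 581 bp at 9, 662 bp at 10, 883.5 bp at 11 and 895 bp at 12. The number of calls bounds the width, so this order follows in part from the rule. Calls laid side by side at 201 bp each would fit 2 times or more in 938 members (84.9%), at least 3 times in 116 (10.5%) and at least 4 times in 22 (1.99%).

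**Figure D1:**
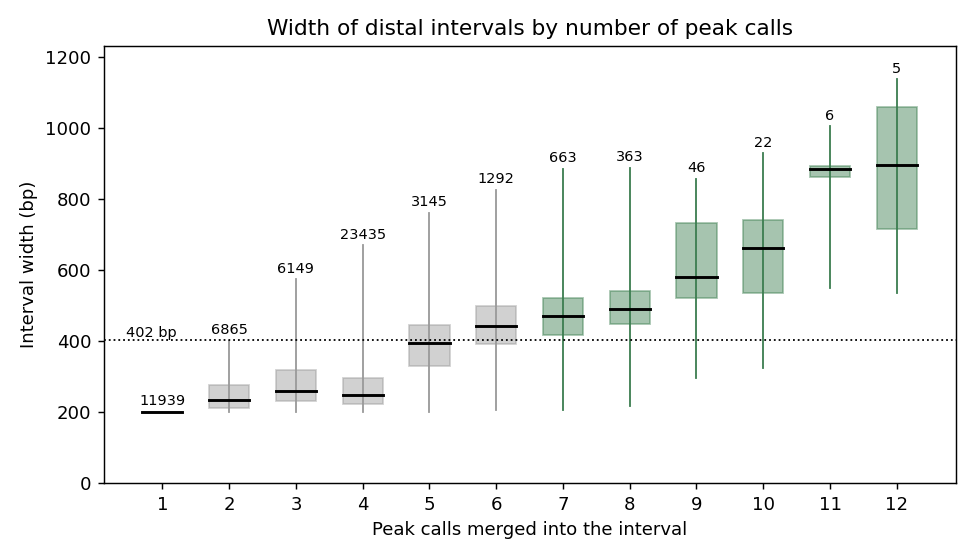
Width in bp (vertical axis) of distal intervals by the number of peak calls merged into them (horizontal axis), with lines from the narrowest to the widest, boxes over the middle quartiles, bars at the median and the number of intervals above each. The members, with 7 or more calls, are green; their medians rise from 470 to 895 bp, and the dotted line marks 402 bp, the room that 2 calls need side by side.

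The widest members were also those with many calls. The interval outside Ndfip1, the gene of an adaptor of Nedd4 ubiquitin ligases, was 1136 bp wide with 12 calls (chr18:38483425-38484560). At Grk5, a kinase gene that acts on G-protein-coupled receptors, an interval of 12 calls was 1057 bp wide (chr19:60946014-60947070). At Spire2, an actin nucleator gene, 11 calls covered 1004 bp (chr8:123342384-123343387). The other members with 11 or 12 calls lay at Rab13 (895 bp), Mbd2, a reader gene of methylated DNA (715 bp), Ppp1r21 (535 bp), Ntng2 (896 bp), the cadherin gene Fat3 (885 bp), Gpr155 (882 bp), the calcineurin inhibitor gene Cabin1 (854 bp) and Ptbp2, a splicing regulator gene (549 bp). None of these 11 was in either differential list. Width and call number did not always go together: at Cpeb1, the gene of a regulator of poly(A) tails, 7 calls covered 885 bp, and at Plekhg5 8 calls covered 888 bp.

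A group of members was narrow. In 167 of the 1105 (15.1%) the interval was under 402 bp, so that no 2 calls of 201 bp could lie in it without sharing bases. Since there were 4 libraries, at least 1 library must have given overlapping calls there, if every call had the width seen in the single-call intervals. The narrowest lay at Septin11, a cytoskeletal GTPase gene, with 7 calls in 206 bp (chr5:93093229-93093434). At Fam161a there were 8 calls in 217 bp (chr11:23007765-23007981), and at Rreb1, a zinc-finger factor gene, 8 in 228 bp (chr13:37779360-37779587). The call number in these members thus did not count separate sites, and the name multi-summit was not borne out by their width. Members under 402 bp were 129 of 663 with 7 calls (19.5%), 35 of 363 with 8 (9.64%), 2 with 9 and 1 with 10.

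The name of each interval also gave a position, which lay at the centre or within 0.5 bp of it for intervals of 1 or 2 calls. In members it lay a median of 17 bp from the centre, and by more than 50 bp in 91 members (8.24%). The median was 4 bp at 4 calls, 19.5 bp at 5 and 22 bp at 6, with 9.22% and 10.8% over 50 bp at 5 and 6 calls, so members did not stand above the intervals nearest to them in call number. The largest offset was 119.5 bp, at Ndfip1, followed by 107.5 bp at Tmcc1 and 96.5 bp at Efcab8.

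Members were spread thinly over many genes. They were assigned to the gene that held their centre or else to the nearest, which gave 1027 protein-coding genes, of which 939 (91.4%) held 1 member, 75 held 2, 12 held 3 and 1, Pip4k2a, held 4. In 6 members the centre lay in more than 1 gene, and 1 of these, in a cluster of overlapping genes on chromosome 18, counted for 20 genes. Inside a gene lay 699 members (63.3%, exact 95% binomial interval 60.3 to 66.1, counting error only). The same share was 60.9% in distal intervals of 4 to 6 calls and 63.3% in those of 1 call, so members were close to the other distal intervals in this respect. The 406 members outside genes lay a median of 15248.25 bp from one. Genes with a member were long, with a median of 56.0 kb against 28.6 kb for genes with any distal interval, and had a median of 8 merged peaks against 4. Members were from 1.55% of distal intervals on chromosome 1 to 2.49% on chromosomes 12 and 19.

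At Pip4k2a, which encodes a kinase of phosphatidylinositol 5-phosphate (gene 18718, chr2:18842255-18998291, minus strand), 4 of 40 distal intervals were members. One was inside the gene (7 calls, 737 bp, chr2:18928254-18928990). A 9-call interval of 791 bp and a 7-call interval of 436 bp lay 51561 and 61185 bp from its upper end, upstream on the minus strand, and an 8-call interval of 671 bp lay 42289 bp past its other end. None was in a differential list. Since 3 of the 4 lay outside the gene, the count depends on the rule that gives a peak to the nearest gene: with every gene within 50000 bp counted, Pip4k2a held 2.

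At 12 genes lay 3 members each. At Ly86, the gene of MD-1, a partner of the Toll-like receptor homologue RP105, 9 calls covered 523 bp inside the gene (chr13:37356428-37356950), and 8-call intervals of 441 and 484 bp lay 32688 and 63128 bp outside. At Prkcb, the gene of protein kinase C beta, the 3 members had 10, 9 and 8 calls and were all inside, at 626, 518 and 435 bp. Ccr6, the receptor gene for the chemokine Ccl20, had 3 members of 7 calls in a short gene of 22479 bp or within 3670 bp of it, out of 9 distal intervals. At Mef2c, a transcription factor gene active in microglia, 3 members of 7 calls lay inside (504, 602 and 406 bp), out of 34 distal intervals.

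The remaining 8 of the 12 were Tiam1, Samd12, Ttc28, Ccnl1, Nos1ap, Rptor, Frmd4a and Arhgap5. Tiam1, a Rac exchange factor gene, held 10-, 8- and 8-call intervals, all inside. The 3 at Rptor, a subunit gene of the growth kinase complex mTORC1, had 8 calls each and were close in width, at 482, 477 and 476 bp. Both Ccnl1, a cyclin gene, and Arhgap5 had their 3 members outside the gene, and at Ccnl1 they stood 16095, 34405 and 54443 bp from it. A pair at Arhgap5 was separated by 743 bp. Of these 13 genes, 9 were longer than 100 kb, and Frmd4a, a scaffold gene of cell polarity with 55 distal intervals, was the longest at 596394 bp. Tmcc1 and Cers6, a ceramide synthase gene, followed with 2 members each (1370 and 1292 bp in sum). Those at Tmcc1 were 862 and 508 bp wide, and those at Cers6 804 and 488 bp.

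**Figure D2:**
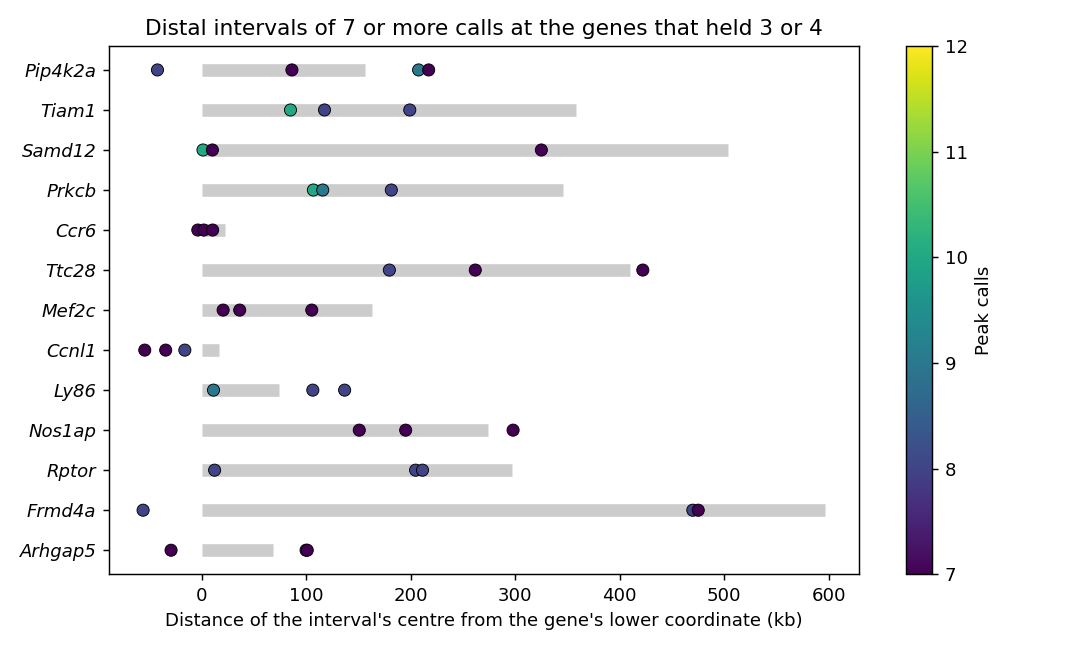
Position of members at the 13 genes that held 3 or 4, in kb from the gene's lower coordinate (horizontal axis), with the gene body in grey and each member as a point coloured by its number of calls. The members are spread along long genes such as Tiam1 and Prkcb and lie outside Ccnl1 and Arhgap5, where 2 points overlap.

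Members seldom stood next to each other. Of all neighbouring pairs on a chromosome, 6 were within 1000 bp, 27 within 10000 bp and 82 within 50000 bp. The closest were at Dnah2, a dynein gene, with 38 bp between intervals of 8 and 7 calls (chr11:69516120-69516592 and chr11:69516631-69517172), and at Ccdc88c, with 50 bp between 2 of 7 calls. Merged intervals of any call number were within 1000 bp of 351 members (31.8%), as of 31.7% of all distal intervals.

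The cell type was checked on gene lists made for macrophages and for other cells. All 9 macrophage and microglial markers had merged peaks nearby (3 at Csf1r, Spi1, Tmem119 and Aif1, up to 28 at Irf8). So had 23 of 27 neuron, glia and vessel markers (85.2%) and 17 of 29 lymphocyte and neutrophil markers (58.6%). Of all protein-coding genes 68.2% had one, so the neuron, glia and vessel markers also lay above that share. An open interval is not expression, so these counts place peaks only. None of the 9 macrophage markers, Csf1r, Cx3cr1, Spi1, Irf8, Mertk, Fcgr1, P2ry12, Tmem119 and Aif1, held a member (0 of 9, where 6.88% of genes with a merged peak did). A 0 among their 68 distal intervals leaves room for about 3 counts, or 4.41%. That bound takes intervals as independent, which neighbours are not, so it is a rough guide only. The 0 is thus not read as below the 2.08% found over all genes.

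Lists are described by 2 shares. The first is of list genes with a merged peak that held a member, to be read against 6.88% (1027 of 14925) of all genes. It depends on which gene a peak is given to: with every gene within 50000 bp counted, lymphocyte and neutrophil markers went from 2 genes to 7, antigen presentation and phagocytosis genes from 3 to 6 each, and microglial identity genes from 7 to 11. The second is of the distal intervals of the list's genes that were members, to be read against 2.08% of all, since genes with more peaks have more chances to hold one.

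Macrophage transcription factor genes held members most often by the first share, at 13 of 35 genes (37.1%), with 15 of 477 distal intervals (3.14%). These genes had a median of 13 merged peaks each, against 3 over all genes. Pparg, the nuclear receptor gene of lipid handling, had 1 inside and 1 upstream of it by 17245 bp, with 8 calls each (584 and 688 bp). The lymphoid and macrophage repressor gene Bach2 had a 9-call interval of 778 bp inside (chr4:32352335-32353112), and Runx1, a blood cell factor gene, an 8-call interval of 560 bp at 28629 bp from it. Members of 7 calls lay inside the ETS factor genes Fli1, Ets1 and Elf1 and the interferon regulatory factor genes Irf2 and Irf5, and outside Irf1. Others were Rxra, Klf2 and Tfec.

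Of microglial identity genes, 7 of 30 (23.3%) held 9 of the list's 336 distal intervals (2.68%). Beside Mef2c they were Trem2, the lipid-sensing receptor gene, with 430 bp in the gene, the nucleotide receptor gene P2ry6, the adhesion receptor gene Adgrg1, the integrin gene Itgb5, Selplg and Rtn4rl1. The monocyte list had 2 of 25 genes (8%), Tgfbi with 2 members and Klf2 with 1, and 1.53% of its distal intervals. Border-associated macrophage genes had 1 of 18, the lectin gene Clec4n. Microglial and monocyte genes were thus both near the background when read per distal interval.

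Inflammatory genes had 5 of 34 (14.7%) and 5 of 215 distal intervals (2.33%). The adaptor gene Traf1 had 10 calls over 706 bp, 1644 bp from the gene (chr2:34963103-34963808), and Il1b, Rel, Tnfaip3 and Traf6 had 7 calls each. Antigen presentation genes had 3 of 17, namely Ciita, the master regulator gene of MHC class II with 2 members inside, Cd80 and H2-DMb1, and 4 of 85 distal intervals (4.71%). Disease-associated and lysosomal genes had 4 of 23, Cd9 with 2 and Fabp5, Npc1 and Trem2 with 1, and 5 of 112 (4.46%). Phagocytosis and complement genes had 3 of 25 (1.46% of distal intervals), of which the complement gene C1qb had 10 calls over 808 bp at 1485 bp from the gene (chr4:136878238-136879045), beside the engulfment gene Elmo1 and the exchange factor gene Vav1.

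The other lists had few members. AP-1, EGR and NR4A genes, immediate early factors, had 0 of 21 genes and 0 of 101 distal intervals. By the same rough bound this leaves room for up to 2.97%, so the 0 is not read as below the background. Lipid and cholesterol genes had Pparg and Abca1, the cholesterol exporter gene (1.86%), cytokine and chemokine receptor genes had Tgfbr2 with 2 (1.1%, in a list that does not hold Ccr6), and interferon response genes had Ifnar1 (1.69%). Lists of other cell types also had members: Flt1 and Slc1a3 among neuron, glia and vessel markers (1.4%), and Klrb1c and Ltf among lymphocyte and neutrophil markers (2 of 46, 4.35%). The 3 shares above 4% rest on 2, 4 and 5 intervals.

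**Figure D3:**
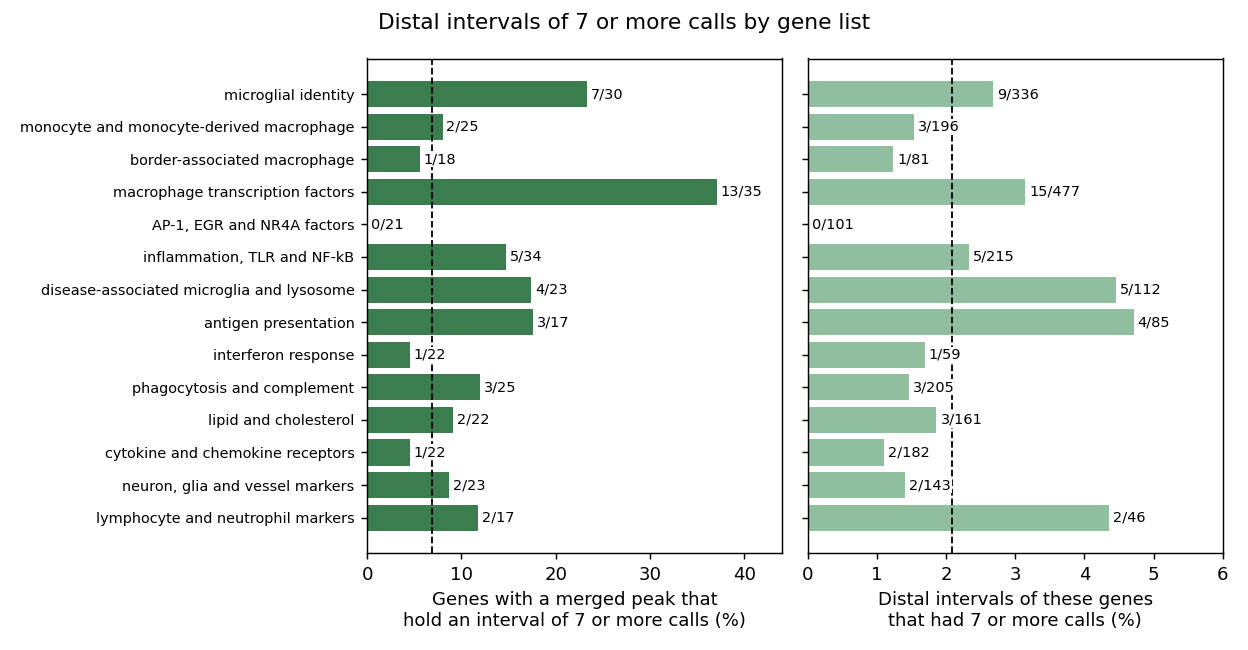
For each of 14 gene lists, the percentage of genes with a merged peak that held a member (left, counts beside the bars) and the percentage of the genes' distal intervals that were members (right). Dashed lines mark all genes, at 6.88% and 2.08%; macrophage transcription factors reach 37.1% on the left and 3.14% on the right.

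The authors' lists name peaks called different between MDM and YSM, and 17 members were in them. The MDM list, read as higher in MDM, held 11 members (0.995%, exact 95% interval 0.498 to 1.77), where it held 0.145% of all merged and 0.152% of distal intervals. The YSM list held 6 (0.543%, 0.2 to 1.18), where it held 1.48% of all merged and 1.56% of distal intervals. In distal intervals of 2 calls the counts were 5 MDM-listed and 404 YSM-listed (5.88%), and in those of 4 to 6 calls 59 (0.212%) and 229 (0.822%). Call number and list membership both come from the accessibility in the same 4 libraries, so the shares are set side by side with no test. Members differed from the other classes in that MDM-listed ones outnumbered YSM-listed ones. This did not hold when 6-call intervals were added (13 MDM-listed and 16 YSM-listed). Nor did it hold among the 663 members of 7 calls alone, where 4 were MDM-listed and 4 YSM-listed.

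**Figure D4:**
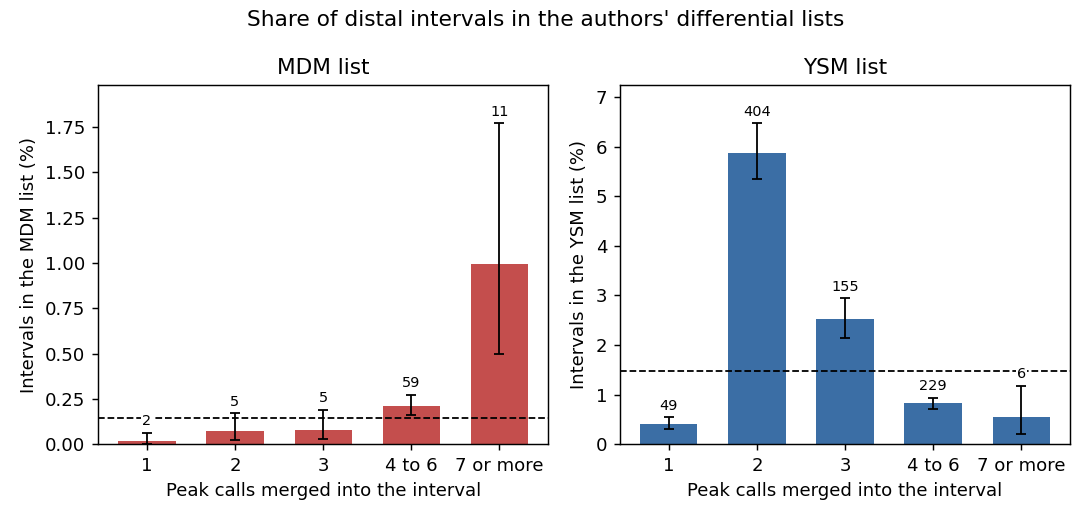
Percentage of distal intervals in the authors' MDM list (left) and YSM list (right) by number of merged peak calls, with exact 95% binomial intervals that cover counting error only and the number listed above each bar. The dashed lines mark all merged intervals (0.145% and 1.48%); at 7 or more calls 11 were MDM-listed and 6 YSM-listed.

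The shares were also set side by side by width. Between 402 and 602 bp, 7 of 822 members (0.852%) and 9 of 3048 intervals of 4 to 6 calls (0.295%) were MDM-listed, and 4 (0.487%) and 51 (1.67%) were YSM-listed. Between 603 and 803 bp the order differed, with 1 of 94 members MDM-listed (1.06%) and 2 YSM-listed (2.13%), against 0 in either list among 53 intervals of 4 to 6 calls. Of the 22 members of 804 bp or more, 2 were MDM-listed and 0 YSM-listed. Intervals of 7 or more calls at gene edges held 0 MDM-listed and 2 YSM-listed among 641. Those beyond 100000 bp from a gene held 4 MDM-listed (6.06%) and 0 YSM-listed among 66. The listed share of all intervals at these places is not given here. These counts thus do not show whether the shares belong to the call number or to the place.

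Of the 11 MDM-listed members 9 lay inside a gene. Kcnip1, the gene of a calcium-binding partner of potassium channels, had the widest, with 10 calls over 928 bp (chr11:33931975-33932902). It stood alone, with 1 other merged peak within 50000 bp. This member held the start of the lncRNA gene Gm36395, whose repetitive upstream stretch is given with the sequences. No other listed member held a start of the table used. That table lacks chromosome 18, where the Atp9b member lay, and some genes with listed members, such as Samd12 and Sort1. Larp1b, a La-related RNA-binding protein gene, had 10 calls over 579 bp (chr3:41038420-41038998), with 2 merged peaks within 50000 bp, and Samd12 had 10 calls over 532 bp (chr15:53400114-53400645). Thus 3 of the 22 members with 10 calls were MDM-listed, and 0 were YSM-listed.

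At Tfec, a gene of the MiT/TFE factor family that is active in macrophages, 9 calls covered 661 bp, 1498 bp downstream of the nearest annotated start (chr6:16896613-16897273). Gm1123 had 9 calls over 804 bp (chr9:99008989-99009792). Armc2 (chr10:41968161-41968602) and Ccm2, a vascular scaffold gene (chr11:6560857-6561279), had 8 calls each, over 442 and 423 bp. Traf6, the ubiquitin ligase gene of Toll-like and interleukin-1 receptor signalling, had 7 calls over 498 bp inside the gene, 21016 bp from its start (chr2:101699187-101699684), and Fam178b 7 over 513 bp (chr1:36589067-36589579). Outside genes, Irs2, an adaptor gene of insulin signalling, had 7 calls over 434 bp, 7437 bp upstream of the gene (chr8:11016149-11016582), and Vxn had 7 over 388 bp, 7337 bp from the gene (chr1:9593737-9594124). Of these, the Vxn interval was under 402 bp, and the next merged peak to the Irs2 interval was 85 bp away.

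The 6 YSM-listed members had 7 calls except for 2. Amigo2, a gene of a neuronal adhesion molecule, had the most, with 9 calls over 741 bp at 31137 bp from the gene (chr15:97212567-97213307), and Sort1, the sortilin gene, had 8 over 534 bp inside (chr3:108348097-108348630). Sec31a, a gene of the COPII vesicle coat, had an interval of 621 bp at 12070 bp from it (chr5:100349269-100349889). Those inside St3gal2, a sialyltransferase gene (572 bp, chr8:110938899-110939470), Atp9b (533 bp, chr18:80853205-80853737) and the semaphorin gene Sema4d (500 bp, chr13:51686940-51687439) completed the list. No gene held both an MDM-listed and a YSM-listed member. The 6 YSM-listed members were 500 to 741 bp wide and the 11 MDM-listed ones 388 to 928 bp, so the ranges overlapped.

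The rule kept members away from the outer ends of protein-coding genes, and part of them still lay on annotated starts, either of shorter transcripts or of non-coding genes. Of the 1071 members on chromosomes in the start table, 92 (8.59%, exact 95% interval 6.98 to 10.4) held the first base of a transcript in it. The share was 3.63% in intervals of 4 to 6 calls and 0.666% in those of 1 call. In 63 of the 92 it was a start of the gene the member was assigned to, as at Rab13, Dok3, Il16 and Sema4b, and in the other 29 of a lncRNA gene, as at Gm32249 near Ccr7 and Snhg17 near Lbp. Wider intervals hold more bases, so the shares were also set side by side by width. Within 402 to 602 bp the shares were 8.32% for members and 4.16% for 4 to 6 calls. Under 402 bp they were 9.09% (15 of 165) and 3.56%. Between 603 and 803 bp they were closer, at 8.7% (8 of 92) and 7.69% (4 of 52). No test was run, since neighbouring intervals are not independent of each other.

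**Figure D5:**
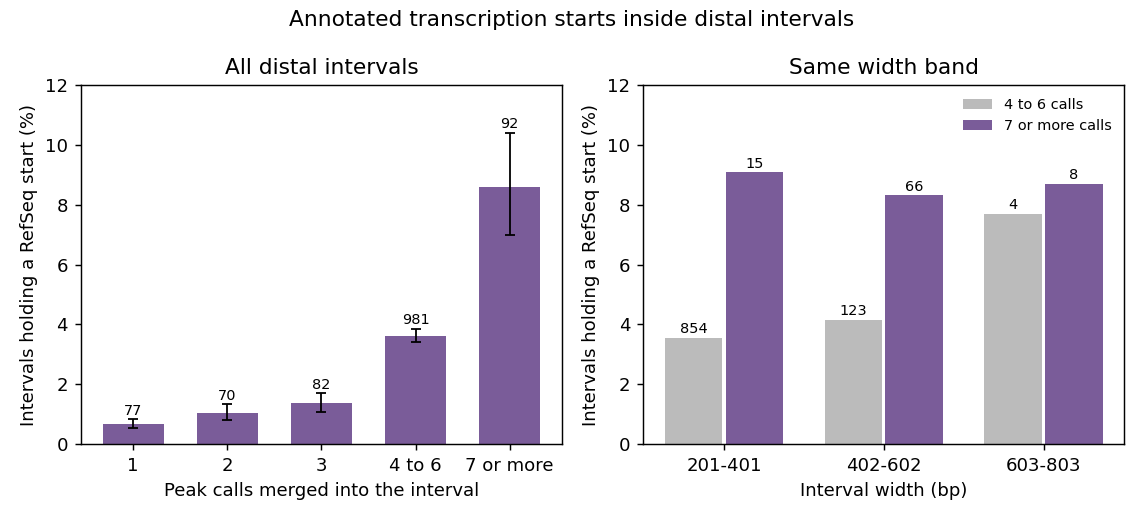
Percentage of distal intervals that held a RefSeq transcription start, by number of merged peak calls (left, with exact 95% binomial intervals) and by width band for 4 to 6 against 7 or more calls (right), with the number of intervals holding a start above each bar. The share reaches 8.59% at 7 or more calls and lies above that of 4 to 6 calls in each of the 3 bands drawn, the widest of which holds 4 and 8 intervals with a start.

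The start windows in members, 1 per member, were GC-rich. Their median GC content was 58.8%, between 52.7% for all 32817 distinct windows of the table and 62.3% for the 6266 whose start lay in a gene edge peak. A ratio of observed to expected CpG above 0.6 was found in 59.8% of them, 80.4% of the gene edge windows and 35.8% of all windows. PU.1 matches were in 5 of the 92 windows (5.43%), against 3.2% of all, C/EBP in 15.2% against 10.8%, CTCF in 2.17% against 0.914%, RUNX in 9.78% against 16.8%, AP-1 (TGANTCA) in 6.52% against 7.81% and the core of the IRF motif in 2.17% against 3.43%. In the gene edge windows the shares were 3.57% (PU.1), 7.71% (C/EBP), 1.56% (CTCF), 12.1% (RUNX), 3.96% (AP-1) and 3.29% (IRF). The AP-1 share in members was thus below that of all windows and above that of the gene edge windows. With 92 windows each count in members is small, from 2 to 14, and a match is a run of letters, not a bound site.

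Relative to the annotated starts of their gene, 880 members could be placed, those on such a start included. The median distance to the nearest was 22660.5 bp, with 231 (26.2%) beyond 50000 bp and 110 (12.5%) within 1000 bp. Outside genes 161 of 318 (50.6%) lay upstream, and none of the 318 was within 1000 bp (0), as the rule requires. Inside genes the median was 19838.5 bp. Members were thus mostly far from the starts of their own gene, with a minority on them. Starts of other genes were not part of this distance, so it does not reflect the 29 members on lncRNA starts only.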

How the data were processed

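ATAC-seq libraries of sorted mouse brain macrophages (2 MDM, 2 YSM, grouped by their titles) were processed by the authors with Trimmomatic 0.39, Bowtie2 2.2.5, Picard and HOMER on mm10, per the submitters' processing notes. The authors merged 4 per-library peak files with mergePeaks, per the file headers. No source used here gives the peak caller settings or list thresholds. Only positions and the call number in each name were used. The remaining deposited column, 1 in every merged and nearly every listed interval and of unstated meaning, was not used.

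Intervals were placed against 21900 RefSeq protein-coding genes (GRCm38.p6) and matched to the authors' lists by identical coordinates, written 1-based, with Python 3.11.15, pandas 2.3.3, numpy 2.4.6 and scipy 1.17.1. The placement was tested on simulated intervals. Members, gene lists (14, with 343 genes) and comparisons were chosen with earlier results of these data known, so nothing was tested. Named were the 15 genes with most members, the 10 members highest in calls or width, all listed members, up to 3 genes per list, and examples chosen after their values were seen. Motifs were searched in start windows lying in members, since no genome was used. Alternatives changed the call minimum, gene distances, gene kinds, the point measured and list matching. Some results are not reported here.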

Additional observations from a re-analysis of the deposited data

How the results depend on the processing

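Of 45 values of the main quantities under an alternative, 31 stayed close and 14 moved, all 14 with another minimum of calls, which changes how many intervals are counted. With 6 or more calls there were 2397 intervals, 1479 of them inside genes, at 1986 genes, with a median width of 462 bp and 16 in the YSM list. With 8 or more there were 442 intervals, 281 inside genes, at 443 genes, with a median of 506.5 bp, 2 in the YSM list and 7 in the MDM list, and 16 genes of the 14 gene lists held one, against 43. With 9 or more, 1 was in the YSM list and 5 in the MDM list. Counting every gene within 50000 bp gave 63 such genes, and border-associated and cytokine receptor genes went from 1 to 3 each and AP-1, EGR and NR4A genes from 0 to 1. Over the alternatives, 29 counts of single genes or lists moved. Distances to genes, gene kinds, the point measured, merging of neighbours and list matching left most main quantities close to their first values. The values counted as close include the rise from 43 to 63 listed genes and a fall from 11 to 8 MDM-listed members. That fall came with a limit of 2000 bp from gene ends. It left out the MDM-listed members at Samd12, Larp1b and Tfec, which lay 1267, 1498 and 1521 bp from a gene end. No paired analysis was possible because the intervals and lists carry no value per library, and for the same reason no library could be left out in turn. The depth of the libraries was not analysed here. Annotated starts in members, with alternatives chosen after seeing the data, fell from 92 to 40 with 8 or more calls.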
